A study of Arabidopsis thaliana with 18 samples.

Results

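A set of 10 heat-response genes, of the 34212 loci in the deposited tables, was followed in leaves of 2 Arabidopsis thaliana genotypes and in 3 kinds of RNA. The members were fixed by their locus identifiers, in a choice made with earlier results of these data known. They were the chaperone genes HSP70 (AT3G12580), HSP101 (AT1G74310) and HSP90.1 (AT5G52640), the small heat shock protein genes HSP17.4 (AT3G46230), HSP18.2 (AT5G59720), HSP17.6II (AT5G12020), HSP17.6A (AT5G12030) and HSP21 (AT4G27670), and the transcription factor genes HSFA2 (AT2G26150) and DREB2A (AT5G05410). All 10 loci were found in both tables. The control plants were Col-0 carrying the pad4-1 allele, and the mutant plants carried upf1-3 together with pad4-1, so the pad4-1 allele of PAD4, a gene of salicylic acid-dependent defence, was common to every library. Plants spent 10 days on Murashige and Skoog medium with sucrose at 22 °C under 16 h light and 8 h dark and were 3 weeks old on soil at harvest, and no heat treatment is named in the labels. Total RNA, monosomal RNA and polysomal RNA were each sequenced from 3 biological replicates of each genotype, which gives 18 strand-specific libraries depleted of ribosomal RNA.

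UPF1 is a core RNA helicase of nonsense-mediated decay, which removes transcripts whose stop codon lies far upstream of the last splice junction or of the poly(A) tail. Heat shock factors are transcription factors that bind inverted repeats of GAA, the heat shock element, and switch on chaperone genes when unfolded protein accumulates. In plants the constitutive HSFA1 factors start the response and HSFA2 prolongs it, while DREB2A, which binds the CCGAC core of the dehydration-responsive element, feeds into it through HSFA3. HSP70 and HSP90 fold and mature client proteins with the help of co-chaperones, HSP101 is a ClpB disaggregase needed for acquired heat tolerance, and the small heat shock proteins hold unfolded protein in a soluble state.

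Heat shock elements before the start codons are shown here because they are the sequences that heat shock factors bind. In the 500 genomic bases before the annotated start codon of the TAIR10.1 reference, the perfect 3-unit element, GAANNTTC followed by NNGAA on either strand, was found in 5 of the 10 members, in 329 of 27443 protein-coding genes (1.20%) and in 14 of 66 other genes of the heat pathway (21.2%). The 2-unit forms GAANNTTC and TTCNNGAA, which overlap the 3-unit form, were found in 9 of 10 members and in 33.9% of protein-coding genes, and the CCGAC core was found in 3 of 10 members and in 23.4% of protein-coding genes. DREB2A held none of these words in its window, of which 445 bases lay within the annotated gene. The annotated gene of HSP101 starts 507 bases before its start codon, so its window held no base upstream of the gene. Capitals mark the element in each stretch, written 5′ to 3′ on the strand of the gene.
HSP70, chr3:3993846-3993875, minus strand: tttactcgtGAACGTTCTCGAAagctcttt
HSP90.1, chr5:21352253-21352282, plus strand: aaacgaaaaGAACTTTCTGGAAttcgtttg
HSFA2, chr2:11135527-11135556, plus strand: attagtaacGAAGTTTCTGGAAcattgtct
HSP18.2, chr5:24062387-24062416, plus strand: tcaacaaacGAAACTTCCTGAAatgccaag
HSP17.4, chr3:16984946-16984975, minus strand: atcaacataGAAGCTTCTTGAAgccacctg
HSP101, chr1:27940322-27940351, minus strand: ataaaataagcGAAAATTCcacgtgacatc
HSP17.6II, chr5:3883035-3883064, minus strand: gaccaagacgtTTCTCGAAcaatacggaag
HSP17.6A, chr5:3884842-3884871, minus strand: gatcaagacgtTTCTCGAAcgttagagaag
HSP17.4 held a second 3-unit element, HSP101 held a single 2-unit element, and the neighbouring genes HSP17.6II and HSP17.6A each held 1 two-unit element within a similar stretch. The elements of HSP70, HSP101, HSP18.2 and HSP17.6II lay within the annotated gene, before its start codon. Those of the other genes shown lay upstream of the annotated gene. HSP21 held 2 elements of the 2-unit form, which are not shown.

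In the TAIR10.1 annotation, no transcript of any member had a splice junction beyond 50 nt downstream of the stop, the arrangement most often used to predict a substrate of nonsense-mediated decay. HSP17.4, HSP18.2, HSP17.6II and HSP17.6A have 1 exon, and HSP90.1 has no annotated bases after its stop. No such junction was possible in these genes. HSP70 lies at chr3:3991117-3993886 on the minus strand and has 2 exons and an annotated 3′ untranslated region of up to 370 bases. HSP101 lies at chr1:27936508-27940369 on the minus strand with 2 annotated transcripts, and HSP90.1 at chr5:21352557-21355147 on the plus strand with 4 exons and no annotated untranslated region. HSFA2, at chr2:11135624-11137792 on the plus strand, had 4 annotated transcripts and the longest 3′ untranslated region of the members, 575 bases. At most 0.991% of the 31-base words of any member occurred in another locus, so reads of near-identical copies could have moved few of their counts.

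The libraries held between 16325571 and 81528746 estimated counts, and levels are given in CPM, the count scaled to library depth. Chloroplast transcripts took 20.7% to 74.1% of a library, with the highest shares, 59.9% and 74.1%, in the monosomal and polysomal control libraries of replicate 1. UPF1 itself, measured over the whole locus, was lower in every mutant total library (26.3 to 43.4 CPM) than in every control total library (64.8 to 79.0 CPM), but the polysomal libraries of the genotypes overlapped (26.2 to 61.6 against 45.6 to 49.7 CPM). PAD4, whose pad4-1 allele both genotypes carry, was at 1.36 to 1.87 CPM in control and 3.94, 42.8 and 4.66 CPM in mutant total replicates, and was called higher by 3.45 on the log2 scale (edgeR adjusted p = 0.0298). That difference was 1.46 without mutant replicate 2, and the call was lost without any 1 control library (edgeR adjusted p of up to 0.105). In monosomal and polysomal RNA PAD4 differed by 2.03 and 2.82 on the log2 scale and was not called (edgeR adjusted p = 0.211 and 0.0949). A count over the whole locus cannot check either mutant allele. The leaf markers RBCS1A, RCA and CAB1 together reached 7857 to 28502 CPM in every library. Root markers stayed at or below 0.704 CPM, whereas flower and seed markers summed to 130 and 101 CPM in control monosomal replicates 2 and 3, to 25.3 and 37.0 CPM in control polysomal replicates 2 and 3, and to at most 12.7 CPM in the other libraries. In total RNA the summed leaf markers were 22999 to 28502 CPM in control and 7857 to 13984 CPM in mutant libraries.

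The cytosolic chaperone gene HSP70 was the member that differed most between the genotypes. In total RNA its level in control replicates 1, 2 and 3 was 2.44, 1.80 and 1.80 CPM and in the mutant replicates 70.1, 22.7 and 29.0 CPM. Every mutant library lay above every control library, and replicate 1 was the highest of the mutant libraries. The difference was 4.28 on the log2 scale (SE 0.46, 19.4-fold, 95% interval 3.21 to 5.34, edgeR adjusted p = 0.00171). Monosomal RNA gave 0.446, 1.24 and 1.95 CPM in control and 48.2, 16.4 and 15.1 CPM in mutant libraries, a log2 difference of 4.52 (SE 0.67, edgeR adjusted p = 0.000506). Polysomal RNA gave 0.549, 0.732 and 1.45 CPM in control and 58.9, 23.4 and 15.4 CPM in mutant libraries, a log2 difference of 5.16 (SE 0.69, edgeR adjusted p = 0.000182). The groups were apart in all 3 kinds of RNA, and the calls held in every alternative analysis that was run. The size rested in part on mutant replicate 1: without that library of the same kind of RNA, the log2 difference was 3.66 in total, 3.75 in monosomal and 4.44 in polysomal RNA. In the order of log2 differences HSP70 took place 270 of 20302 tested genes in total RNA, 538 of 20895 in monosomal RNA and 258 of 20895 in polysomal RNA.

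HSP101, the disaggregase, was higher in mutant leaves in each kind of RNA, with the largest log2 difference on polysomes. The genotype differences of its polysome to monosome and polysome to total ratios were not called. Total RNA gave 7.06, 5.85 and 7.73 CPM in the control libraries and 17.02, 10.9 and 24.9 CPM in the mutant libraries. The groups did not overlap, and the log2 difference was 1.32 (SE 0.33, 2.49-fold, edgeR adjusted p = 0.0223). This call rested on all the control libraries: the edgeR adjusted p was 0.0795, 0.0896 and 0.0642 on leaving out control replicate 1, 2 or 3. Monosomal RNA gave 1.96, 1.45 and 5.59 CPM in control and 19.0, 6.15 and 5.94 CPM in mutant libraries. Mutant replicate 1 stood well above the other mutant libraries, which lay just above the highest control library. The monosomal log2 difference was 1.83 (SE 0.51, edgeR adjusted p = 0.0267). It fell to 1.05 (edgeR adjusted p = 0.160) without mutant replicate 1, and to 1.61 and 1.48 (edgeR adjusted p = 0.0843 and 0.115) without control replicate 1 or 2, and was 2.62 without control replicate 3. Polysomal RNA gave 4.79, 5.72 and 4.52 CPM in control and 39.1, 39.6 and 39.9 CPM in mutant libraries. The replicates of each genotype lay close together and the genotypes far apart, with a log2 difference of 3.01 (SE 0.52, 8.04-fold, edgeR adjusted p = 0.00126) that was called in every alternative.

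HSP90.1, the heat-inducible copy of cytosolic HSP90, was higher in mutant total and polysomal RNA. Its total RNA levels were 3.97, 1.87 and 1.86 CPM in the control libraries and 25.7, 20.2 and 6.30 CPM in the mutant libraries. The groups did not overlap, mutant replicate 3 was the lowest of its group, and the log2 difference was 2.70 (SE 0.55, 6.51-fold, edgeR adjusted p = 0.0113). Without control replicate 2 or 3 the log2 difference was 2.56 or 2.52 (edgeR adjusted p = 0.0573 and 0.0516). Polysomal RNA gave 2.19, 9.83 and 3.47 CPM in control and 43.6, 19.7 and 20.0 CPM in mutant libraries, a log2 difference of 2.43 (SE 0.64, edgeR adjusted p = 0.0201) with no overlap. Dropping control replicate 1, control replicate 3 or mutant replicate 1 ended the call (edgeR adjusted p = 0.0661, 0.0937 and 0.0756), and without control replicate 2 the log2 difference was 3.32. Monosomal RNA gave 1.84, 1.77 and 6.53 CPM in control and 17.9, 5.30 and 8.02 CPM in mutant libraries. Here the groups overlapped and the log2 difference of 1.66 (SE 0.64, edgeR adjusted p = 0.0986) was not called. Without control monosomal replicate 3, the highest of its group, it was 2.54 (edgeR adjusted p = 0.0360).

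**Figure D1:**
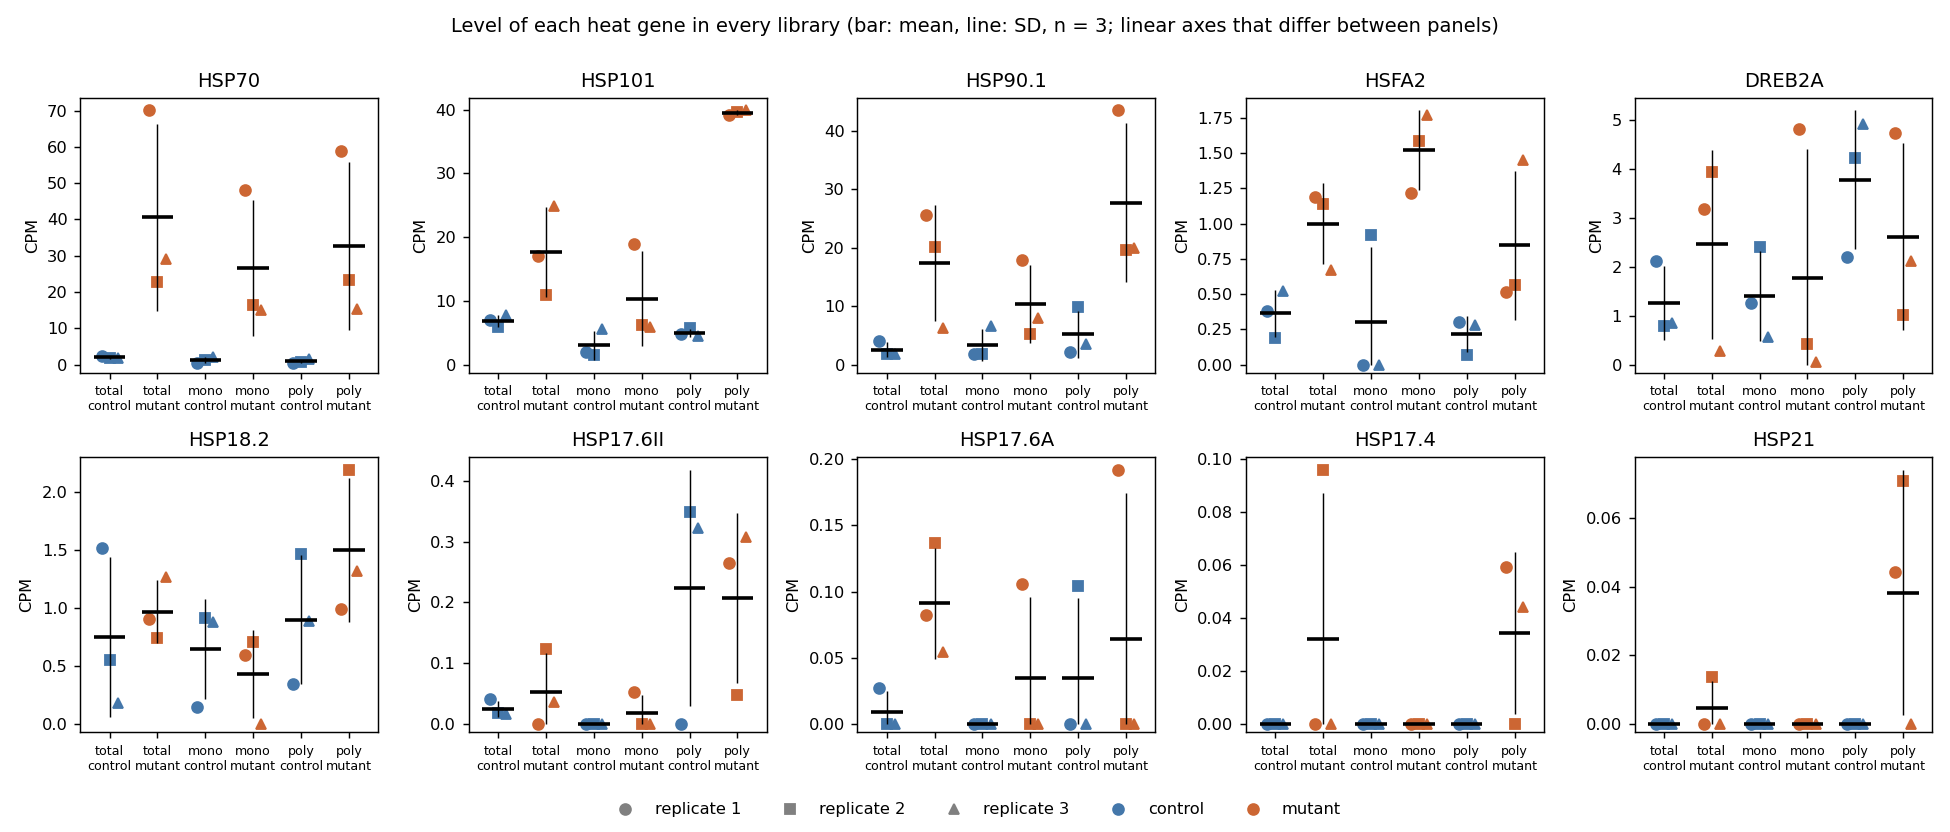
Level of each of the 10 genes in every library in CPM on linear axes that differ between panels, with total, monosomal and polysomal RNA of control (blue) and mutant (orange) side by side; symbols mark the replicate, horizontal bars the mean and vertical lines the SD of 3 libraries. HSP70 lies at 15.1 to 70.1 CPM in the mutant libraries and at or below 2.44 CPM in the control libraries, whereas 4 of the 5 small heat shock protein genes stay at or below 0.349 CPM in every library.

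The factor gene HSFA2 was scarce in all libraries. Its total RNA levels were 0.379, 0.191 and 0.523 CPM in the control libraries and 1.19, 1.14 and 0.670 CPM in the mutant libraries. Each mutant library was above each control library, but the log2 difference of 1.40 (SE 0.55, 95% interval 0.12 to 2.68) did not pass the threshold (edgeR adjusted p = 0.0938). Monosomal RNA gave 0, 0.915 and 0 CPM in control and 1.21, 1.58 and 1.77 CPM in mutant libraries. Polysomal RNA gave 0.299, 0.070 and 0.282 CPM in control and 0.516, 0.565 and 1.45 CPM in mutant libraries. The mutant libraries were again all above the control libraries in both fractions, with edgeR adjusted p of 0.362 and 0.466 and 95% intervals of -1.001 to 5.58 and -1.32 to 5.31 on the log2 scale. Control monosomal replicate 2 alone held HSFA2 in its group, and without it the edgeR adjusted p was 0.0355, in a comparison against a group listed at 0. Limma-voom called the monosomal difference too (adjusted p = 0.0466).

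DREB2A did not pass the test in either direction. Total RNA held 2.12, 0.784 and 0.850 CPM in the control libraries and 3.18, 3.93 and 0.272 CPM in the mutant libraries. Mutant replicate 3 was the lowest and replicates 1 and 2 the highest of these 6 libraries, and the 95% interval of the log2 difference ran from -1.03 to 2.88 (edgeR adjusted p = 0.440). Monosomal RNA gave 1.25, 2.39 and 0.565 CPM in control and 4.81, 0.426 and 0.049 CPM in mutant libraries, and polysomal RNA 2.19, 4.22 and 4.92 against 4.72, 1.01 and 2.11 CPM. The genotypes overlapped in both fractions, and the edgeR adjusted p was 0.875 and 0.828.

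The 5 small heat shock protein genes gave no call in any comparison in which they were tested, and 4 of them had few or no counts. The most abundant of them, HSP18.2 of cytosolic class I, stood at 1.52, 0.554 and 0.180 CPM in control and at 0.904, 0.739 and 1.27 CPM in mutant total RNA. The groups overlapped, and the 95% interval of the log2 difference ran from -1.36 to 2.01 (edgeR adjusted p = 0.759). Its monosomal levels were 0.149, 0.915 and 0.879 CPM in control and 0.594, 0.710 and 0 CPM in mutant libraries, and its polysomal levels 0.349, 1.46 and 0.887 against 0.989, 2.19 and 1.32 CPM. Both pairs of groups overlapped, and neither fraction gave a call (edgeR adjusted p = 0.837 and 0.790).

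HSP17.4, the other class I gene, had no count in any of the 9 control libraries and 7, 4 and 1 counts in 3 mutant libraries. HSP21, whose protein works in plastids, likewise had none in the 9 control libraries and 1, 3 and 3 counts in 3 mutant libraries. A library with no count could hold up to the level of 3 counts, which lay between 0.0396 and 0.188 CPM depending on its scaled depth. The 7 counts of HSP17.4 (0.0958 CPM, mutant total replicate 2) lay above this floor in the control total libraries (0.0406 to 0.0573 CPM). Its 4 counts (0.0590 CPM, mutant polysomal replicate 1) lay below the floor of the control polysomal libraries (0.105 to 0.150 CPM). Neither HSP17.4 nor HSP21 was tested. HSP17.6A of class II had 2, 0 and 0 counts in control and 4, 10 and 3 counts in mutant total libraries, and was too low to be tested. Its counts were 0, 0 and 0 against 8, 0 and 0 in monosomal RNA. In polysomal RNA they were 0, 3 and 0 against 13, 0 and 0, and the groups overlapped in both fractions. The other class II gene, HSP17.6II, reached no more than 18 counts (0.349 CPM at most), was at 0 in 7 of 18 libraries, and gave no call where it was tested. Summed over the 5 small heat shock protein genes, control total libraries held 0.196 to 1.58 CPM and mutant total libraries 0.986 to 1.36 CPM.

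Together, 3 of the 6 members tested in total RNA were called higher and none lower, where 15.3% of 20302 tested genes were called higher and 12.5% lower. In monosomal RNA 2 of 7 were called higher, against 8.07% of 20895 genes, and in polysomal RNA 3 of 7, against 8.34%. None was called lower, against 4.60% and 5.04%. Of the members tested, HSP70, HSP101, HSP90.1 and HSFA2 had every mutant library above every control library in total and polysomal RNA, as did 25.3% and 20.8% of tested genes, and the monosomal libraries did so for HSP70, HSP101 and HSFA2, as in 16.3% of genes. The median log2 difference of the tested members was 1.36, 1.83 and 2.00 in total, monosomal and polysomal RNA, beside 0.030, 0.019 and 0.033 over all genes tested. The 4, 3 and 3 members left out by the count filter were small heat shock protein genes and are not part of these medians. Since the members were chosen with earlier results of these data known, these counts and medians only describe the chosen genes. In tissue this coarse, a change in the number of cells expressing a gene and a change in RNA per cell cannot be told apart.

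**Figure D2:**
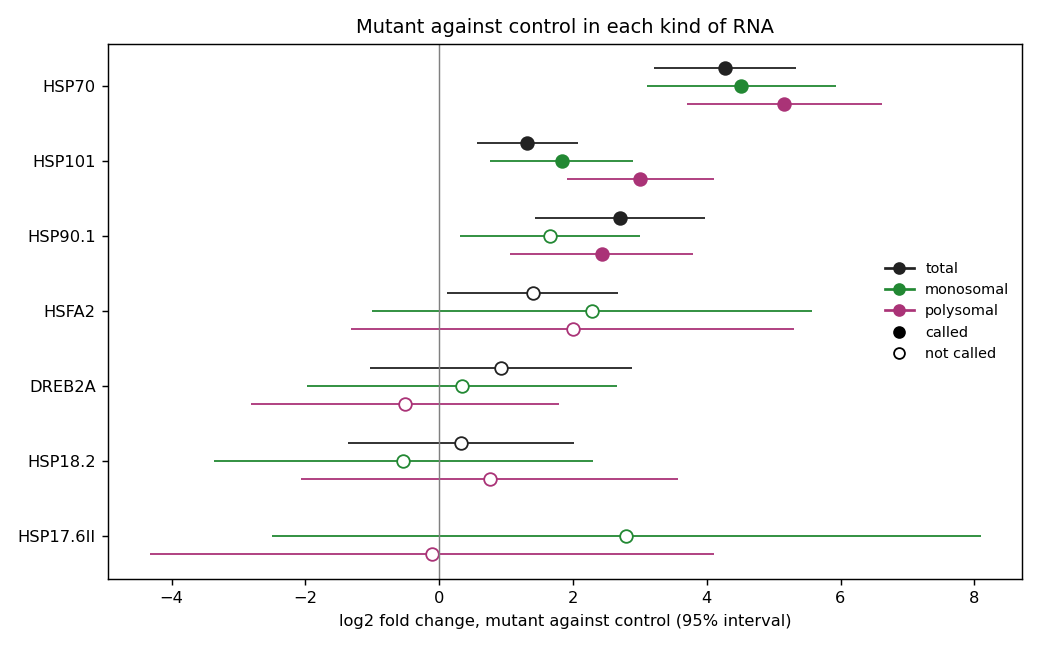
Log2 difference of mutant against control leaves for the members that passed the count filter, in total (black), monosomal (green) and polysomal (purple) RNA; lines are 95% intervals from the edgeR fits, filled points were called at an adjusted p under 0.05 and open points were not. The intervals of HSP70 and HSP101 lie above 0 in all 3 kinds of RNA, while those of DREB2A and HSP18.2 include 0 throughout.

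Other properties of the libraries moved with the genotype. The morning-phased clock genes CCA1 and LHY stood at 0.697 to 4.49 and 1.29 to 11.9 CPM in the 6 control fraction libraries and at 76.2 to 176 and 139 to 588 CPM in the 6 mutant fraction libraries. In total RNA CCA1 reached 0.834 to 0.947 CPM in control libraries and 3.61, 2.46 and 54.2 CPM in the mutant libraries of replicates 1, 2 and 3. ZAT10, a zinc-finger gene induced by touch and wounding, was at 0.392 to 0.883 CPM in control and 7.25 to 23.2 CPM in mutant total RNA. PR1, a salicylic acid marker, reached 568 CPM in mutant total replicate 2 and at most 13.7 CPM in the other total libraries. Flower and seed markers summed to 6.75 to 130 CPM in control and 1.20 to 2.57 CPM in mutant monosomal RNA, with the tapetum genes LTP12 and ATA27 and the petal gene PI at the top. The part of these differences in the levels of the heat genes was not tested.

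Within each chaperone family, the member followed here made up a small share in control leaves and a larger one in mutant total RNA. HSP70B, a further heat-inducible gene, was counted among the other cytosolic HSP70 genes. Levels per kilobase of annotated exon were summed over 5 cytosolic HSP70 genes, 4 cytosolic HSP90 genes and 3 ClpB genes. The ClpB genes were HSP101, the plastid CLPB3 and the mitochondrial CLPB4, so only this sum runs across cell compartments. HSP70 made up 0.0671% to 0.0936% of the cytosolic HSP70 level in control and 0.955% to 3.77% in mutant total RNA, while the sum was 1042 ± 18.7 (SD, n = 3) and 833 ± 104 CPM per kb. HSP90.1 made up 0.242% to 0.413% of cytosolic HSP90 in control and 1.66% to 5.55% in mutant total RNA. Here the sum was 389 ± 58.6 in control and 224 ± 45.4 CPM per kb (SD, n = 3) in mutant libraries, so the family level was lower although its inducible copy was higher. HSP101 made up 6.55% to 9.50% of the ClpB level in control and 14.8% to 17.7% in mutant total RNA. On polysomes its share was 4.84% to 5.72% in control and 14.8% to 18.04% in mutant libraries. In monosomal RNA the HSP101 shares overlapped, 2.02% to 9.26% against 2.38% to 11.6%. The whole ClpB sum there was 19.8 ± 1.68 in control and 61.9 ± 12.8 CPM per kb (SD, n = 3) in mutant libraries. HSP101 gave a mean of 0.892 and 3.08 CPM per kb of these sums, and CLPB3 and CLPB4 the rest.

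**Figure D3:**
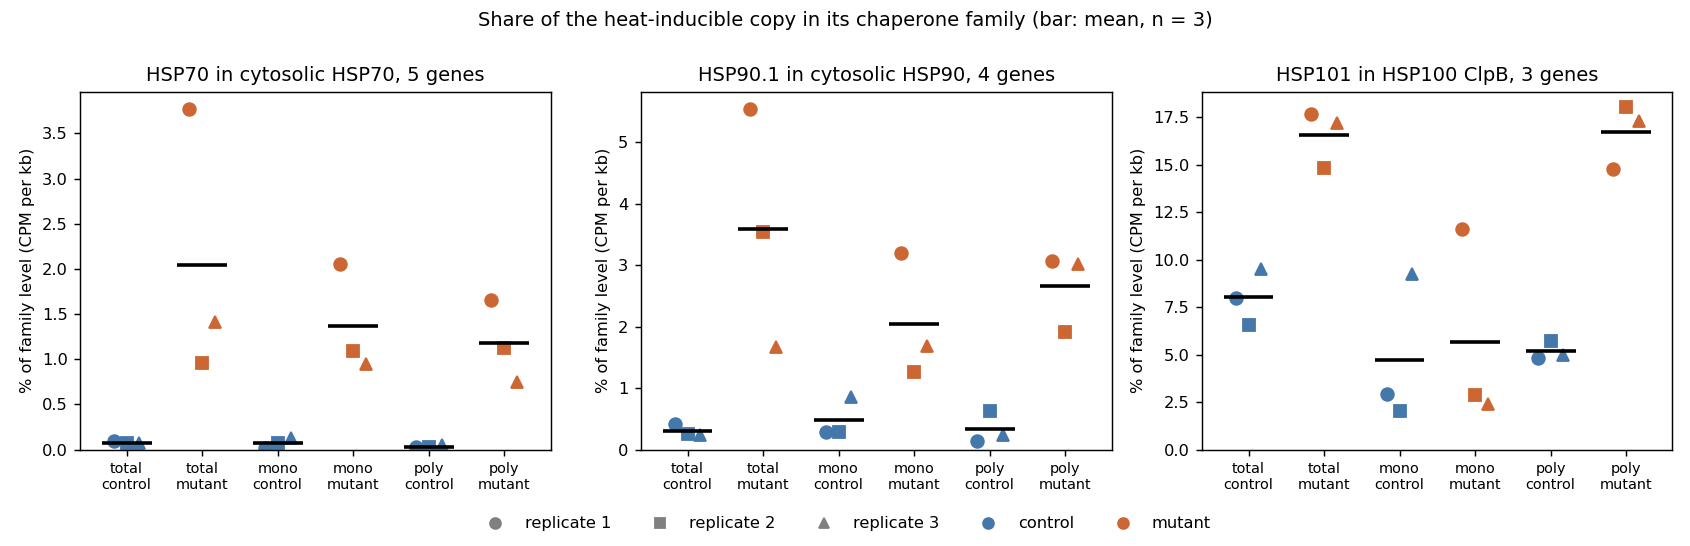
Share of HSP70, HSP90.1 and HSP101 in the summed level of its chaperone family, in percent of CPM per kb, for each of the 18 libraries; the bar is the mean of 3 libraries, blue is control and orange mutant. The mutant shares lie above the control shares for HSP70 and HSP90.1 in each kind of RNA, and for HSP101 in total and polysomal RNA but not in monosomal RNA.

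Ordered by level per kilobase of exon, HSP101 led in control total RNA at 2.05 ± 0.284 CPM per kb (SD, n = 3). HSP90.1 followed at 1.22 ± 0.576, and HSP70, HSP18.2 and DREB2A lay together at 0.798 ± 0.146, 0.767 ± 0.705 and 0.759 ± 0.458 CPM per kb, within each other's spread. HSFA2 was at 0.194 ± 0.0888 CPM per kb and the other small heat shock protein genes below 0.0288 CPM per kb. In mutant total RNA the order of the leading genes was different: HSP70 stood at 16.1 ± 10.2, HSP90.1 at 8.26 ± 4.74 and HSP101 at 5.24 ± 2.09 CPM per kb, with ranges that overlapped between neighbours. On mutant polysomes HSP90.1, HSP70 and HSP101 lay at 13.2 ± 6.51, 12.9 ± 9.20 and 11.8 ± 0.119 CPM per kb and did not differ beyond their spread.

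The levels of HSP70, HSP101 and HSP90.1 were also compared from library to library. Over the 18 libraries, the log2 CPM of HSP70 and HSP90.1 had a Pearson r of 0.82, HSP101 and HSP90.1 of 0.81, and HSP70 and HSP101 of 0.79. HSFA2 had an r of 0.71 with HSP70 but of 0.42 with HSP101 and 0.41 with HSP90.1, and HSP18.2 had an r of 0.21 to 0.44 with these 3 chaperone genes and -0.03 with HSFA2. These are descriptions: the 18 points pool both genotypes and libraries of unequal depth, so a difference between the genotypes enters each r. DREB2A had r between -0.08 and 0.29 to HSP70, HSP101, HSP90.1 and HSFA2. The tested genes nearest to each member were AT4G15765 for HSP70 (r = 0.97), AT5G28400 for HSP101 (0.95), AT1G22930 for HSP90.1 (0.90), PUP10 for HSFA2 (0.90), AT1G64563 for HSP18.2 (0.86), BGLU27 for HSP17.6II (0.90) and AT5G51920 for DREB2A (0.79). None of the 35 nearest genes, 5 for each of 7 members, was a member or another gene of the heat pathway.

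The rest of the heat pathway did not move in 1 direction. Of 65 other genes listed as heat shock factors, chaperones, co-chaperones, heat outputs and DREB2 factors, interactors and targets, 54 were tested in total RNA, where 6 were called higher and 12 lower, against 15.3% and 12.5% of all tested genes, and their median log2 difference was -0.14. In monosomal RNA 56 were tested, with 4 called higher and 5 lower, against 8.07% and 4.60%. In polysomal RNA 56 were tested, with 2 called higher and 5 lower, against 8.34% and 5.04%. Leaving out 1 library at a time gave 5 to 9 higher and 5 to 10 lower calls in total RNA, 1 to 5 and 1 to 5 in monosomal RNA, and 2 to 4 and 1 to 6 in polysomal RNA.

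Among the heat shock factors, 3 of the 14 tested in total RNA were called higher, none lower and 11 neither way, where 15.3% of all tested genes were called higher. HSFA1E, one of the constitutive activators, was at 1.57 ± 0.111 CPM in control and 12.1 ± 2.56 CPM in mutant total RNA (SD, n = 3), a log2 difference of 2.90 (SE 0.26, edgeR adjusted p = 0.00131). It was also called higher on polysomes (2.87, SE 0.50, edgeR adjusted p = 0.00142). HSFB2A, a class B factor that represses transcription, rose by 2.54 and HSFA4A by 1.92 on the log2 scale in total RNA (edgeR adjusted p = 0.00412 and 0.00656), and these 4 calls held with any 1 library left out. In monosomal RNA HSFA1D was called higher by 1.15 on the log2 scale, while HSFB4 and HSFA8 were called lower by 1.85 and 2.11 on the log2 scale, HSFA8 by 2.97 without mutant replicate 1. HSFA7A was called higher there from a control group with 0.267, 0 and 0 CPM, and its log2 difference ran from 3.94 without mutant replicate 1 to 9.96 without control replicate 1, so its size was not fixed by these libraries. Each of these 4 monosomal calls was lost on leaving out at least 5 of the 12 fraction libraries in turn, with edgeR adjusted p of up to 0.135.

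The constitutive HSP90 genes went the other way from HSP90.1 in total RNA. All 5 of the list were called lower in the mutant, where 12.5% of all tested genes were. The cytosolic HSP90.4 was at 43.7 ± 5.98 CPM in control and 17.3 ± 3.11 CPM in mutant libraries (SD, n = 3), and fell by 1.38 on the log2 scale (SE 0.22, edgeR adjusted p = 0.00493), also with any 1 library left out. The cytosolic HSP90.2 and HSP90.3, the plastid HSP90.5 and the mitochondrial HSP90.6 fell by 0.96, 0.79, 1.19 and 0.95 (edgeR adjusted p = 0.0380, 0.0416, 0.0470 and 0.0316). Each of these calls was lost on leaving out any of 5 of the 6 libraries, with edgeR adjusted p of up to 0.144, 0.156, 0.157 and 0.119. HSP90.4 was lower in monosomal and polysomal RNA too, by 1.10 and 1.11, and HSP90.5 in polysomal RNA by 1.13. These 3 calls were lost without 3, 2 and 4 of the 12 fraction libraries (edgeR adjusted p of up to 0.0844, 0.0824 and 0.0721).

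Of 9 co-chaperone genes tested in total RNA, 5 were called lower and none higher, against 12.5% and 15.3% of all tested genes. The other 4 were not called, and 3 of the 9 had a positive log2 difference, of up to 2.12. HOP1 and HOP2, which hand clients from HSP70 to HSP90, fell by 1.55 and 1.26 (edgeR adjusted p = 0.00390 and 0.00590), and BOB1, a chaperone needed for development and heat tolerance, by 1.25. All held without any 1 library. ROF1, an immunophilin that binds HSP90, fell by 1.45 and HSBP, a repressor of heat shock factors, by 0.97. Without control total replicate 1 their edgeR adjusted p was 0.0703 and 0.117, and HSBP was also lost without 4 other libraries. On polysomes ROF1 fell by 1.07 (edgeR adjusted p = 0.0253, lost without 4 of the 12 fraction libraries, up to 0.107).

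In the HSP70 list, HSP70B, a further heat-inducible cytosolic gene, rose by 1.77 on the log2 scale in total RNA (edgeR adjusted p = 0.00756), from 4.05 ± 1.30 to 14.3 ± 3.27 CPM (SD, n = 3). The plastid genes cpHSC70-2 and cpHSC70-1 fell by 1.56 and 1.25 (edgeR adjusted p = 0.00343 and 0.0151), the latter not without control total replicate 1 or 3 (0.0690 and 0.0557). The abundant HSC70-1 was at 2186 ± 59.9 CPM in control and 1579 ± 189 CPM in mutant total RNA and was not called. In the HSP100 list, CLPB3, the plastid ClpB, rose in monosomal and polysomal RNA by 1.68 and 1.22 (edgeR adjusted p = 0.00107 and 0.00759). Both calls held without any 1 library, and in total RNA CLPB3 was at 61.0 ± 6.13 and 66.4 ± 28.0 CPM and not called. CLPB4, the mitochondrial ClpB, rose by 1.18 in monosomal RNA (edgeR adjusted p = 0.0331, lost without 6 of the 12 fraction libraries, up to 0.117).

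Of 11 further small heat shock protein genes 8 were tested in each kind of RNA, and of these AT5G51440 (HSP23.5-M), annotated as an HSP20-like chaperone, was called in total RNA and no other was called in any. It stood at 0.0406, 0.134 and 0.180 CPM in control and 5.20, 2.08 and 1.27 CPM in mutant total replicates, a log2 difference of 4.53 (SE 0.77, edgeR adjusted p = 0.00591) that was 3.80 without mutant replicate 1. Of the heat outputs, GOLS1, a galactinol synthase induced by heat shock factors, rose by 2.97 in total RNA (edgeR adjusted p = 0.0221, but 0.0775, 0.0832 and 0.0838 without control replicate 1, 2 or 3), and by 1.62 without mutant replicate 3. In the DREB2 list nothing was called in total RNA. RD29A, a classical target of DREB factors, fell by 2.57 in monosomal and 2.99 in polysomal RNA (edgeR adjusted p = 0.00114 and 0.000320), from 95.7 ± 38.4 and 67.1 ± 35.8 to 16.1 ± 3.41 and 8.22 ± 3.58 CPM (SD, n = 3). DREB2C fell by 3.91 and 4.17 (edgeR adjusted p = 0.0267 and 0.0199), and lost these calls without 2 and 5 of the 12 fraction libraries (up to 0.0826 and 0.0870). Its monosomal log2 difference was -6.51 without mutant replicate 1 and -3.32 without control replicate 1.

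**Figure D4:**
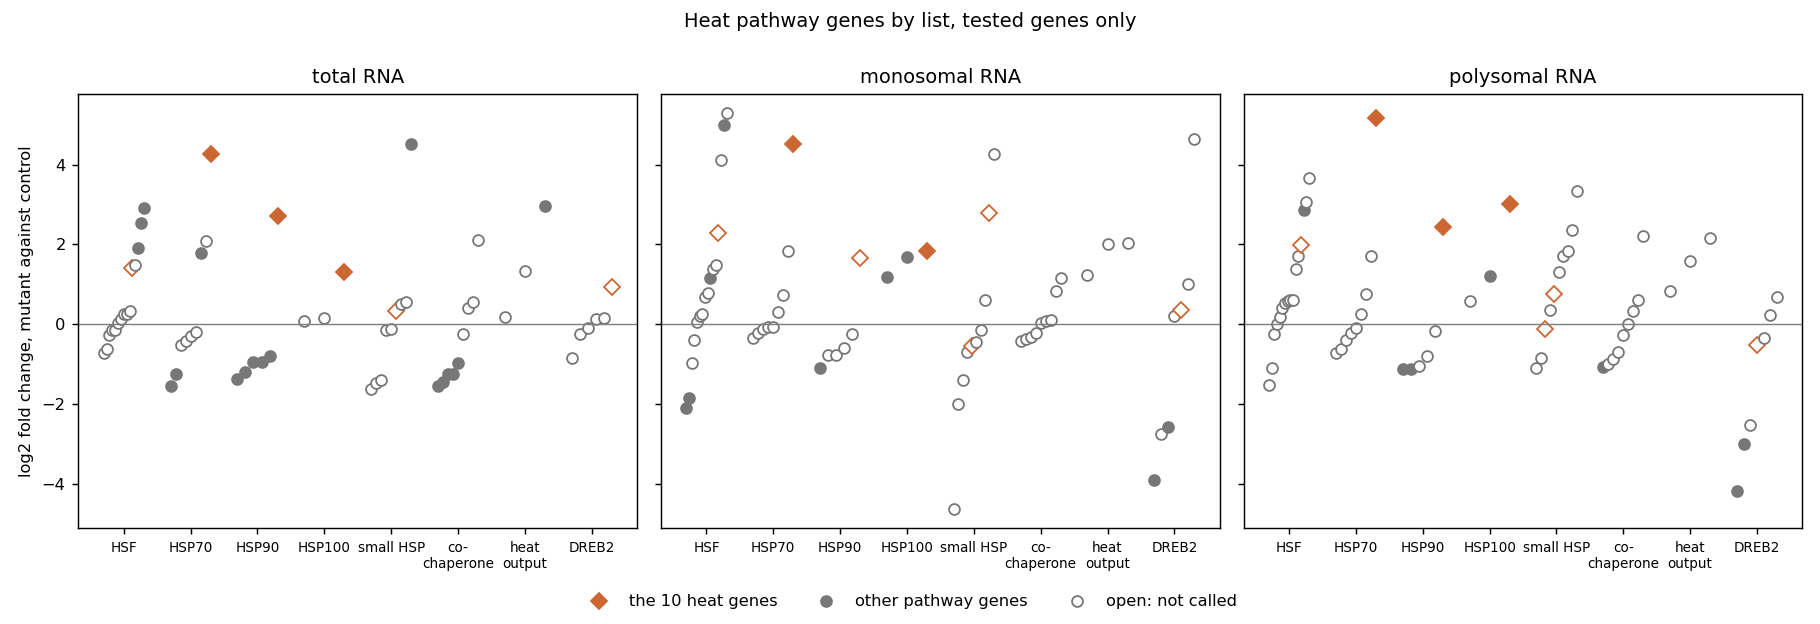
Log2 difference of mutant against control leaves for the tested heat pathway genes by list, in total, monosomal and polysomal RNA; diamonds are the members, circles the other pathway genes, and filled symbols were called at an edgeR adjusted p under 0.05. In total RNA the 5 constitutive HSP90 genes lie between -1.38 and -0.79 below their heat-inducible relative at 2.70.

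The distribution between fractions was compared within each genotype. No member passed the test between polysomal and monosomal RNA in control leaves, where 0.153% of 20895 genes were higher and 0.172% lower on polysomes. In mutant leaves none passed either, against 0.570% and 0.536% of genes. HSP101 came nearest: its 3 mutant polysomal libraries (39.1 to 39.9 CPM) lay above its 3 monosomal libraries (5.94 to 19.0 CPM), with a log2 difference of 1.93 (SE 0.49, edgeR adjusted p = 0.0723). Such an order of the libraries was seen in 10.8% of genes. Same-numbered mutant monosomal and polysomal libraries deviated together from their group means, and with the replicate as a block the difference was 2.17 (SE 0.45, edgeR adjusted p = 0.0185). It was 1.93 and 2.72 (edgeR adjusted p = 0.0403 and 0.0167) without control monosomal replicate 3 or mutant monosomal replicate 1. In control leaves the same comparison of HSP101 gave 0.76 (95% interval -0.30 to 1.82, edgeR adjusted p = 0.569). The difference between the genotypes in this ratio was itself 1.18 (SE 0.69, 95% interval -0.29 to 2.65, edgeR adjusted p = 1.00).

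HSP90.1 also had all 3 mutant polysomal libraries (19.7 to 43.6 CPM) above the monosomal ones (5.30 to 17.9 CPM), but its log2 difference of 1.41 (SE 0.62, edgeR adjusted p = 0.330) was not called. For HSP70 the 95% interval of polysomal against monosomal RNA in the mutant was -0.90 to 1.47 on the log2 scale. For HSFA2 and DREB2A these intervals were -3.98 to 2.31 and -1.75 to 2.85, too wide to place either gene.

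Polysomal against total RNA also gave no call for any member in either genotype. In control leaves 1.39% of 21905 genes were higher on polysomes and 1.09% lower, and in mutant leaves 5.23% and 3.72%. HSP70 had lower polysomal (0.549 to 1.45 CPM) than total libraries (1.80 to 2.44 CPM) in control leaves, a log2 difference of -1.13 (SE 0.62, edgeR adjusted p = 0.365), and -0.31 in mutant leaves (SE 0.56). Polysomal libraries lay all below total libraries for 17.5% of genes in control leaves. HSP101 had higher polysomal (39.1 to 39.9 CPM) than total libraries (10.9 to 24.9 CPM) in mutant leaves, a log2 difference of 1.16 (SE 0.46, edgeR adjusted p = 0.124, an order seen in 14.7% of genes), and slightly lower ones in control leaves, -0.46 (SE 0.46). The genotype difference of this ratio for HSP101 was 1.62 (SE 0.65, 95% interval 0.26 to 2.99, edgeR adjusted p = 0.627). No gene at all was called in either genotype difference of ratios by the reported edgeR fits, although 493 genes (2.36%) and 1508 genes (6.88%) had an unadjusted p under 0.05, and DESeq2 called 2 genes higher and 0 lower in the polysome to monosome ratio and 25 higher and 32 lower in the polysome to total ratio. With single libraries left out, edgeR gave 0 calls in the polysome to monosome ratio. It gave up to 50 higher and 47 lower calls in the polysome to total ratio. The other settings, DESeq2 among them, gave up to 37 higher and 11 lower calls in the polysome to monosome ratio. They gave up to 25 and 51 in the polysome to total ratio. Because total RNA and the fractions come from separate tables, table and kind of RNA cannot be told apart in these comparisons, which also share their polysomal libraries with those above.

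Of 57 other heat pathway genes tested between mutant polysomes and mutant total RNA, 6 were called higher and 2 lower, against 5.23% and 3.72% of all tested genes. In control leaves none of the 57 was called, but 44 had a positive log2 difference, and 40 in mutant leaves. The median of the HSP90 list was 0.86 in control and 0.87 in mutant leaves, and that of the co-chaperones 0.27 and 0.63. None of the 57 was called in the genotype difference of this ratio. On mutant polysomes HOP2 was higher by 1.44 (SE 0.25, edgeR adjusted p = 0.00197), HSP90.3 by 1.37 and CLPB3 by 1.36 (edgeR adjusted p = 0.00697 and 0.00661), and these 3 calls held without any 1 library. HSP90.4 and cpHSC70-1 were higher by 1.14 and 1.24 (edgeR adjusted p = 0.0116 and 0.00966), each lost without 1 library: 0.0612 without mutant polysomal replicate 2 and 0.0769 without mutant total replicate 2. MBF1C, a transcriptional coactivator of the heat response, was higher by 2.48 (edgeR adjusted p = 0.0491), but by 1.29 (0.343) without mutant polysomal replicate 1, and its call was lost without 12 of the 18 libraries. RD29A was lower on mutant polysomes by 1.96 (edgeR adjusted p = 0.0168) and by 1.28 (0.145) without mutant total replicate 2 and 1.70 (0.0694) without mutant polysomal replicate 3. DREB2C had a log2 difference of -4.94 (edgeR adjusted p = 0.0245) although its libraries overlapped, and lost the call without 5 of the 18 libraries (up to 0.0857). That difference was -4.24 without mutant total replicate 1 and -5.55 without mutant total replicate 3.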

How the data were processed

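The authors deposited estimated counts per locus; the submitters' processing notes name kallisto 0.43.0, limma and the TAIR10 build, and how each was used is not given in the sources used here. A table held the 6 total RNA libraries and another the 12 monosomal and polysomal libraries. Estimated counts were rounded to whole numbers. Genotypes were compared with edgeR 4.0.16 (quasi-likelihood test, TMM scaling, filterByExpr with a minimum count of 10) in R 4.3.3, total RNA in a fit of 6 libraries and the fractions in a fit of 12, and polysomal with total RNA in a fit of all 18. Calls needed a Benjamini-Hochberg adjusted p under 0.05 over all tested genes, 95% intervals used the moderated residual degrees of freedom, and the fit was tested on simulated counts with 200 changed genes. CPM values were put on 1 scale by TMM over the 18 libraries, although the tables were made separately. The floor of 3 counts and all intervals on it cover counting error only.

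The members and the gene lists were chosen with earlier results of these data known. Named are all 10 members, in each genotype comparison up to 4 called genes a pathway list with the smallest p, for polysomal against total RNA in the mutant called list genes chosen after their values were seen, and all 5 HSP90 and 5 co-chaperone genes called in total RNA so that no call of these lists is left out. Of 66 pathway genes fixed, 65 were in the tables, and HSFB1 was not analysed here. Genes were located in the TAIR10.1 RefSeq annotation, which has an entry for 97.7% of the loci. The deposited tables hold no coordinates, so nothing was moved between builds. Exon lengths for CPM per kb are those of TAIR10.1. The labels call the replicates biological, and no replicate pair agreed within sampling noise (chi-square per degree of freedom of at least 33.1).

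Of the pairs of groups checked, only within the mutant fractions did each library go best with the library of its own number. There the deviations of same-numbered monosomal and polysomal libraries from their group means had correlations of 0.25, 0.16 and 0.16. The alternatives were median-of-ratios scaling, no scaling, leaving out organelle and ribosomal RNA loci, no count filter, DESeq2 1.42.0, limma-voom (limma 3.58.1), a replicate block, each fraction alone, and leaving out each library in turn. Leaving out both control fraction libraries of replicate 1 was added after seeing the data.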

Additional observations from a re-analysis of the deposited data

How the results depend on the processing

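Of 386 alternative counts of called members, 373 stayed within 1.5 times of the reported count and no gene named changed sign past the threshold. Most of these counts set 0 against 0, because members were called only as higher and only between the genotypes. A fall from 3 to 2 members also passed as within 1.5 times, so this share says little about single calls. The count of members higher on polysomes than on monosomes in the mutant, 0 as reported, was 2 without a count filter, 1 with DESeq2, 1 with limma-voom and 1 with the replicate block, and 0 to 1 with single libraries left out. For polysomal against total RNA in the mutant limma-voom gave 1 (HSP101, adjusted p = 0.0219). The count of 2 members higher in monosomal RNA became 1 in a fit of that fraction alone and 1 without both control fraction libraries of replicate 1, and 1 to 3 with single libraries left out. The count of 3 in total RNA was 1 to 3 with single libraries left out, with 1 on leaving out control replicate 2 or 3. The replicate block changed no other member's call. In other pairs of groups the match by number was absent or uneven. Between control fractions, same-numbered deviations correlated at 0.35, 0.06 and 0.11. Monosomal replicate 2 with polysomal replicate 3, and 3 with 2, gave 0.13 and 0.12. A pairing of the control fractions was therefore not settled. HSP90.2 and HSP90.3 lost their calls in total RNA under the block (edgeR adjusted p = 0.0649 and 0.0667). Without count filter HSP90.1 was called in monosomal RNA (edgeR adjusted p = 0.00125), as it was without scaling (0.04995), and HSP101 there was not called by limma-voom (adjusted p = 0.0509) or in the fraction alone (edgeR adjusted p = 0.110). Without both control fraction libraries of replicate 1, HSP101 was not called in monosomal RNA (0.0936) nor HSP90.1 in polysomal RNA (0.0620). Unscaled counts moved the median of all genes to -0.14 in total, 0.62 in monosomal and 0.47 in polysomal RNA, and HSP70 stayed called there. Under unscaled counts the calls of HSP90.4 and ROF1 in the fractions were lost, and median-of-ratios scaling lost HSP90.5 in total RNA (edgeR adjusted p = 0.0535). Over all genes, single libraries left out gave 1242 to 3430 higher calls in total RNA (3107 reported), 968 to 1723 in monosomal (1686) and 971 to 1935 in polysomal RNA (1742), and 809 to 2679, 412 to 1181 and 402 to 1217 lower calls (2531, 961 and 1054). Other settings gave 2490 to 4022, 1286 to 3140 and 1344 to 2273 higher and 2299 to 3149, 149 to 1605 and 102 to 1518 lower calls. The cause of these changes was not tested. HSP17.4, HSP21 and HSP17.6A, with at most 7, 3 and 13 counts in a library, passed the count filter in no comparison, and a difference between genotypes in them was not detectable at this depth.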
